A study of Caenorhabditis elegans with 11 samples.

Results

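The very long transcripts examined here were the genes whose exons, merged over all annotated isoforms, spanned at least 8000 nt in the count tables and whose mean was at least 100 counts over the 11 libraries, leaving out the mitochondrial genome and the basement membrane genes *unc-52* and *epi-1*. This rule kept 70 of 46756 genes. Length and overall abundance chose them, and no difference between groups was used. Wild-type *Caenorhabditis elegans* (N2 Bristol) were fed from day 1 of adulthood, for 96 hours at 20 °C, with *Escherichia coli* HT115 making double-stranded RNA against *xpo-1* or carrying the empty vector L4440 (control), and whole worms were collected on day 5. *xpo-1* encodes the nuclear export receptor exportin 1, whose cargoes include proteins and pre-ribosomal particles. Part of each lysate, made with cycloheximide to hold ribosomes in place, gave total RNA, and the rest was separated on a sucrose gradient into monosome RNA (messages with a single ribosome) and polysome RNA (messages with several ribosomes). Control worms gave 2 libraries of each kind of RNA, and *xpo-1* RNAi worms gave 2 total, 2 polysome and 1 monosome libraries, each with 15589628 to 21828657 counts. *xpo-1* itself fell by 2.94 on the log2 scale in total RNA (SE 0.18, edgeR adjusted p 6.91e-05, n = 2 against 2).

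A ribosome that starts on a message stays on it until it reaches the stop codon, so a long coding region can hold many ribosomes at once and a message with a full load sediments deep in the gradient. In general, a single ribosome on a long message reflects rare initiation relative to its length. In the nematode the longest messages encode the giant elastic proteins of muscle, the spectrin, dynein and plakin proteins of the cytoskeleton, large adhesion and matrix proteins that hold the epidermis to muscle and cuticle, and scaffolds of transcription, ubiquitin transfer and lipid transport.

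The 70 genes had exonic lengths from 8012 to 56596 nt, with a median of 10589 nt, against a median of 1464 nt over the 8567 genes with a mean of at least 100 counts. By role they comprised 15 cytoskeletal linkers and motors, 14 matrix, adhesion and epidermal attachment genes, 9 genes of transcription, chromatin and RNA regulation, 8 of membranes, traffic, channels and scaffolds, 6 of the muscle sarcomere and calcium release, 5 of translation control, ribosome assembly and growth, 4 ubiquitin ligases and 9 others. They lay on all chromosomes, with 19 on I, 11 on II, 13 on III, 11 on IV, 9 on V and 7 on X. The longest was the titin-like gene *ttn-1* (chromosome V, 6120909 to 6202626, 56596 nt), followed by *dig-1*, a giant matrix protein (chromosome III, 6746308 to 6794764, 39869 nt), and *unc-89*, the obscurin homologue of the muscle M-line (chromosome I, 4035702 to 4090884, 25961 nt). Coordinates are those of the count tables, on WBcel235.

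The length in the tables is a sum over isoforms, and reads were counted per gene. In the Ensembl annotation of the same assembly, 52 of the 70 genes had at least 8000 nt of coding sequence in their longest coding transcript, and 12 also had a coding transcript under 2000 nt. *nurf-1*, for example, had 23 coding transcripts, the shortest of 432 nt, whereas *dig-1* and *lrp-1* had a single one each. Which isoform was read in which fraction could not be told from these counts. Exons of 26 genes overlapped another gene, by more than 5% of the length only in *anc-1* (6.16%) and *ret-1* (5.21%).

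At the edge of the rule, the shortest genes kept were *nurf-1* (8012 nt), the unconventional myosin *hum-4* (8015 nt) and *utp-20* (8021 nt), and the longest left out were the junction gene *ajm-1* (7952 nt), *sel-2* (7883 nt) and the alpha-spectrin *spc-1* (7816 nt). By abundance, the lowest means kept were those of *hum-4* (123 counts), *dig-1* (156) and ZC247.1 (160), and the highest left out were those of F55H12.3 (92.3), *fmi-1* (84.4) and T01D3.1 (69.6).

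The 70 genes together took 0.364% and 0.367% of the counts in the control total libraries and 0.386% and 0.435% in those of *xpo-1* RNAi. In polysome RNA their share was 0.354% and 0.300% for control worms but 0.732% and 0.620% for *xpo-1* RNAi worms, so the groups did not overlap. In monosome RNA they took 0.545% and 0.846% in the control libraries and 0.513% in the single *xpo-1* RNAi library. The control monosome libraries stood apart from each other for these genes, with a median log2 ratio of 0.88 (replicate 2 over replicate 1) over the 70, and the changes measured in monosome RNA are given below against each of them.

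**Figure D1:**
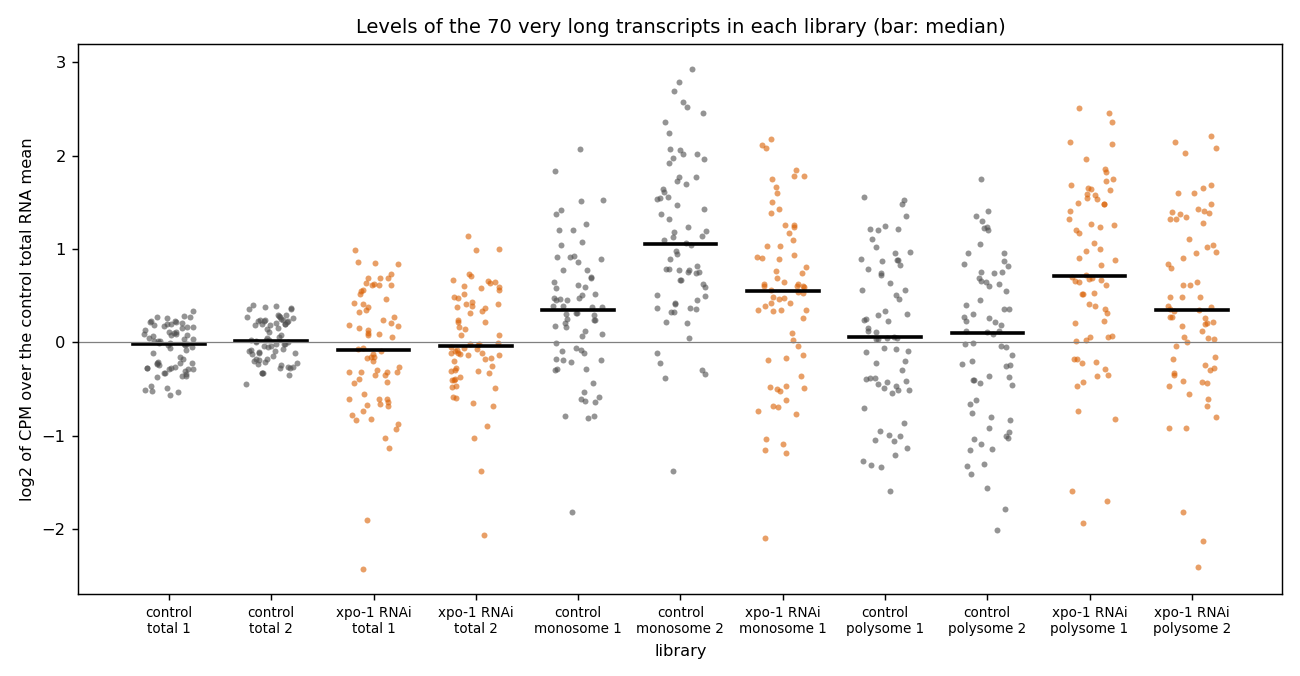
Level of each of the 70 very long transcripts (points) in each of the 11 libraries, as log2 of its normalized counts (CPM) over its mean in control total RNA, with the median as a bar. The medians lay at 0.71 and 0.35 in the *xpo-1* RNAi polysome libraries and at 0.06 and 0.10 in the control polysome libraries, and the 2 control monosome libraries differed, at 0.35 and 1.06.

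The first comparison asked how the abundance of these messages changed. Of the 70, 8 were called higher under *xpo-1* RNAi and 6 lower in total RNA (edgeR quasi-likelihood test, with a call requiring an adjusted p below 0.05 together with a change of more than 1.5-fold). Among all 13795 genes tested, 12% were called higher and 16.9% lower, so that the 11.4% of the 70 called higher lay near the background and the 8.57% called lower lay below it. Their median log2 fold change was -0.03, beside 0.01 over all genes. Of the 8 called higher, 3 were traffic and membrane genes (*pezo-1*, *lpd-3*, *vps-13*) and 3 were linkers or motors (*anc-1*, *dhc-1*, *sax-2*), and of the 6 called lower 3 were matrix or adhesion genes (*mlt-11*, *cdh-12*, *let-805*). In whole worms, fewer cells of a type and less RNA per cell cannot be told apart.

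In polysome RNA 29 of the 70 were called higher and 2 lower, beside 15.5% higher and 22.4% lower of all 13940 genes tested. Their median log2 fold change was 0.60, beside -0.01 over all genes, and 59 of 70 lay above 0, beside 49.7% of all genes. In 46 of the 70 (65.7%) both *xpo-1* RNAi polysome libraries lay above both control libraries, beside 38.2% of all genes. In 4 (5.7%) both lay below, beside 35% of all genes. Of the 29 called higher in polysome RNA, 7 were also called higher in total RNA and 22 were not called there, 7 of the 29 lying below 0. Values are shares of each library, so a higher polysome level is a larger share of polysome RNA and not a larger amount. Scaled by total counts alone, with no correction for composition, the median of all genes was 0.30 in total and 0.40 in polysome RNA. The median of the 70 became 0.26 and 1.01. The calls became 19 higher and 3 lower in total RNA, beside 3305 and 1647 of all 13795 genes. In polysome RNA they became 46 higher and 0 lower, beside 4503 and 2209 of all 13940 genes.

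The number of polysome calls depended on both *xpo-1* RNAi polysome libraries. Without replicate 1 of that group the median of the 70 was 0.42, beside -0.03 over all genes. Without replicate 2 it was 0.76, beside -0.02. Fewer of the 70, and fewer of all genes, were called in either fit. The share of the 70 called higher lay near that of all genes in the fit without replicate 1. *dhc-1*, *hecd-1*, *hmr-1* and *srap-1* were called in each of the 4 fits that left out a polysome library.

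**Figure D2:**
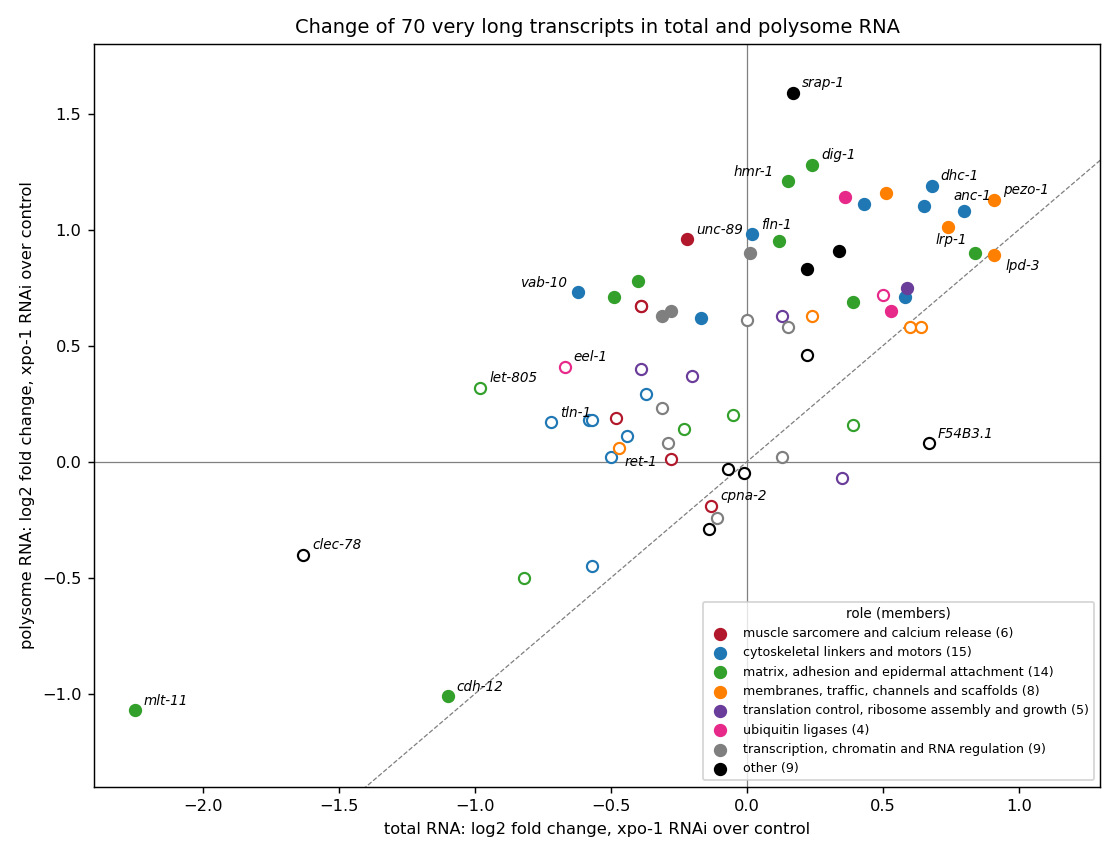
log2 fold change (*xpo-1* RNAi over control) of the 70 genes in total RNA (horizontal axis) and polysome RNA (vertical axis), coloured by role; filled points were called in polysome RNA and the dashed line marks equal change. Of the 70, 59 lay above 0 on the polysome axis and 33 above 0 on the total axis (50.3% of all genes), and *mlt-11* and *cdh-12* were the only ones called lower in polysome RNA.

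None of the muscle giants was called in total RNA and 1 was called in polysome RNA. All 6 genes of the sarcomere and calcium release had negative log2 fold changes in total RNA, from -0.48 to -0.13. These signs and the absence of calls rested on the control libraries. Without control total replicate 2, *unc-89* was at 0.23, *ketn-1* at 0.09, *cpna-2* at 0.08 and *ttn-1* at 0.06, and without control total replicate 1, *ttn-1* (-0.91), *ketn-1* (-0.80), *unc-22* (-0.69) and *unc-89* (-0.61) were called lower. In polysome RNA *unc-89* was called higher, and the median of the 6 was 0.43. The level of *unc-89* in total RNA was 18.5 and 32.8 CPM (counts scaled to library size) in control and 19.6 and 25.1 CPM under *xpo-1* RNAi. Its control polysome levels were 19.8 and 27.9 CPM and the treated ones 61.9 and 35.8 CPM, with no overlap (log2 fold change 0.96, SE 0.30, edgeR adjusted p 0.034).

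*ttn-1*, which like titin spans long stretches of the sarcomere, had 6.11 and 11.9 CPM in control total RNA and 5.26 and 7.86 CPM under *xpo-1* RNAi. Its polysome levels were 6.61 and 11.9 CPM in control and 14.2 and 8.09 CPM under *xpo-1* RNAi, and the groups overlapped in both kinds of RNA. *unc-22*, which encodes the giant kinase twitchin, had polysome levels of 20.3 and 31.9 CPM in control and 58.1 and 29.5 CPM under *xpo-1* RNAi, also overlapping (log2 fold change 0.67, SE 0.34, edgeR adjusted p 0.158). The remaining members of this group were *ketn-1*, the kettin homologue of the I-band, at 0.67 in polysome RNA (edgeR adjusted p 0.0539), *unc-68*, the ryanodine receptor that releases calcium, at 0.01, and the copine-domain gene *cpna-2* at -0.19.

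Shorter genes of muscle were counted beside the giants. Of 8 body-wall muscle markers, such as the myosin heavy chain genes *myo-3* and *unc-54*, 7 were called lower and 0 higher in total RNA, with a median log2 fold change of -0.88, and 2 lower and 0 higher in polysome RNA, with a median of -0.39. Their summed level was 3551 and 6375 CPM in control total RNA and 2537 and 2751 CPM under *xpo-1* RNAi. Of a wider list of 35 muscle and attachment genes of any length, 18 were called lower and 0 higher in total RNA, with 17 not called, and 5 lower and 3 higher in polysome RNA. The part of muscle content in the values of the giants was not tested.

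Among the 15 cytoskeletal linkers and motors, 3 were called higher and 1 lower in total RNA, and 8 were called higher and 0 lower in polysome RNA. *dhc-1* (chromosome I, 4386785 to 4401980), the heavy chain of cytoplasmic dynein, had 76.6 and 54.6 CPM in control total RNA and 118.7 and 94.2 CPM under *xpo-1* RNAi. Its polysome levels were 141 and 102 CPM for control worms and 289.6 and 289.8 CPM under *xpo-1* RNAi. The treated libraries lay above the control libraries in both kinds of RNA, with log2 fold changes of 0.68 in total RNA (SE 0.20, edgeR adjusted p 0.0279) and 1.19 in polysome RNA (SE 0.21, edgeR adjusted p 0.00333).

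*anc-1* (chromosome I, 4321095 to 4359080) anchors nuclei and other organelles to the actin cytoskeleton. It had 14.9 and 15.8 CPM in control and 30.5 and 23.9 CPM under *xpo-1* RNAi in total RNA, and 17.96 and 19.6 against 46.2 and 37.3 CPM in polysome RNA. It was called higher in both (log2 fold change 0.80 and 1.08, edgeR adjusted p 0.0163 and 0.00481). *sax-2*, the homologue of the cell polarity gene Furry, was likewise called higher in both, at 0.65 and 1.10.

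The filamin *fln-1* (chromosome IV, 359204 to 376062), an actin crosslinker, was called in polysome RNA and not in total RNA. It had 198 and 192 CPM in control total RNA and 207 and 194 CPM under *xpo-1* RNAi, a log2 fold change of 0.02 (SE 0.16). Among polysomes it had 201 and 170.2 CPM in control and 384 and 381 CPM under *xpo-1* RNAi (log2 fold change 0.98, SE 0.19, edgeR adjusted p 0.00426). The FERM-domain gene *frm-1* was called higher in polysome RNA at 1.11 (edgeR adjusted p 0.00454) and reached 0.43 in total RNA without a call.

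Other linkers had changes of opposite sign in total and polysome RNA. The spectraplakin *vab-10* (chromosome I, 11747428 to 11792118), which ties epidermal attachments to the cytoskeleton, had 85.1 and 129 CPM in control total RNA and 64.6 and 77.1 CPM under *xpo-1* RNAi. Its polysome levels stood at 58.9 and 57.0 CPM in control and 124 and 77.7 CPM under *xpo-1* RNAi (log2 fold change 0.73, edgeR adjusted p 0.0494). The talin *tln-1*, which links integrins to actin, was called lower in total RNA, from 123 and 174 CPM to 84.0 and 98.5 CPM (log2 fold change -0.72, edgeR adjusted p 0.0208), and had a log2 fold change of 0.17 in polysome RNA (SE 0.20).

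Dystrophin (*dys-1*), beta-spectrin (*unc-70*), ankyrin (*unc-44*) and *lfi-1* also lay below 0 in total RNA, from -0.58 to -0.44, and between 0.02 and 0.18 in polysome RNA, with no call in either. The long heavy spectrin *sma-1* (log2 fold change 0.71) and the guanine nucleotide exchange factor *unc-73* (0.62) were called higher in polysome RNA, and *fln-2* (0.29) and *hum-4* (-0.45) were not called.

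The 14 genes of matrix, adhesion and epidermal attachment included both genes called lower in polysome RNA. The total RNA calls were 1 higher and 3 lower, and the polysome RNA calls 7 higher and 2 lower. The classical cadherin *hmr-1* (chromosome I, 11075758 to 11134667), which joins epithelial cells and neurons, had 293 and 240.5 CPM in control total RNA and 304 and 295 CPM under *xpo-1* RNAi. Its polysome levels were 88.3 and 66.5 CPM in control and 193 and 182 CPM under *xpo-1* RNAi (log2 fold change 1.21, SE 0.21, edgeR adjusted p 0.00299), with no overlap of the groups, and its total RNA change was 0.15 (SE 0.17).

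*dig-1*, the longest gene of this group, had 5.23 and 6.96 CPM in control total RNA and 5.59 and 9.003 CPM under *xpo-1* RNAi. Its polysome levels were 5.296 and 6.01 CPM in control and 18.2 and 10.6 CPM under *xpo-1* RNAi (log2 fold change 1.28, SE 0.30, edgeR adjusted p 0.0113). *lrp-1*, a relative of megalin that takes up lipids in the epidermis, was called higher in total (0.84) and polysome RNA (0.90). The teneurin *ten-1* (0.95), the cadherin *cdh-1* (0.78), the receptor phosphatase *ptp-3* (0.71) and the lipoprotein receptor gene *lrp-2* (0.69) were called higher in polysome RNA and not in total RNA.

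*mlt-11* (chromosome V, 20667209 to 20678513), a protease inhibitor domain gene needed for molting, fell in both kinds of RNA. It had 28.3 and 40.3 CPM in control total RNA and 6.41 and 8.25 CPM under *xpo-1* RNAi (log2 fold change -2.25, SE 0.25, edgeR adjusted p 0.000285). Polysome levels were 14.9 and 16.1 CPM in control and 9.01 and 6.49 CPM under *xpo-1* RNAi (log2 fold change -1.07, SE 0.25, edgeR adjusted p 0.0102). The cadherin *cdh-12* fell by 1.10 in total and by 1.01 in polysome RNA on the log2 scale (edgeR adjusted p 0.023 and 0.0275).

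*let-805* (chromosome III, 2658083 to 2681112) encodes myotactin, which fastens the epidermis to muscle. It fell in total RNA, from 49.5 and 89.2 CPM to 34.2 and 37.4 CPM (log2 fold change -0.98, SE 0.25, edgeR adjusted p 0.0161). Polysome levels were 33.5 and 33.8 CPM in control and 51.6 and 36.7 CPM under *xpo-1* RNAi, a change of 0.32 on the log2 scale without a call (SE 0.22, edgeR adjusted p 0.294). Of the others, the attachment protein *mua-3* stood at -0.82 and -0.50, and *him-4*, *fbn-1* and *cdh-4* had no call in either kind of RNA.

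Markers of molting larvae moved with *mlt-11*. Of 12 such markers, *mlt-11* among them, 10 were called lower and 0 higher in total RNA and 9 lower and 0 higher in polysome RNA, with medians of -2.41 and -2.09. Their summed level was 220.2 and 409.9 CPM in control total RNA and 58.1 and 65.2 CPM under *xpo-1* RNAi. Sperm markers were lower in all 8 of 8 genes in both kinds of RNA, at 77.4 and 328 CPM in control total RNA and 3.67 and 3.88 CPM under *xpo-1* RNAi. The control libraries differed from each other in both lists. Early embryo markers were called lower in 4 of 5 tested genes in both kinds of RNA (medians -2.08 and -2.50), and of 6 intestine markers 4 were called lower and 1 higher in both (medians -0.71 and -0.78). Of 8 germline markers 2 were called lower and 1 higher in total RNA, and 0 lower and 1 higher in polysome RNA (medians -0.18 and 0.20). Of 8 neuron markers 0 were called lower and 1 higher in total RNA, and 0 lower and 2 higher in polysome RNA (medians 0.22 and 0.36). The part of these cells in the values of *mlt-11*, *let-805* and *cdh-12* was not tested.

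**Figure D3:**
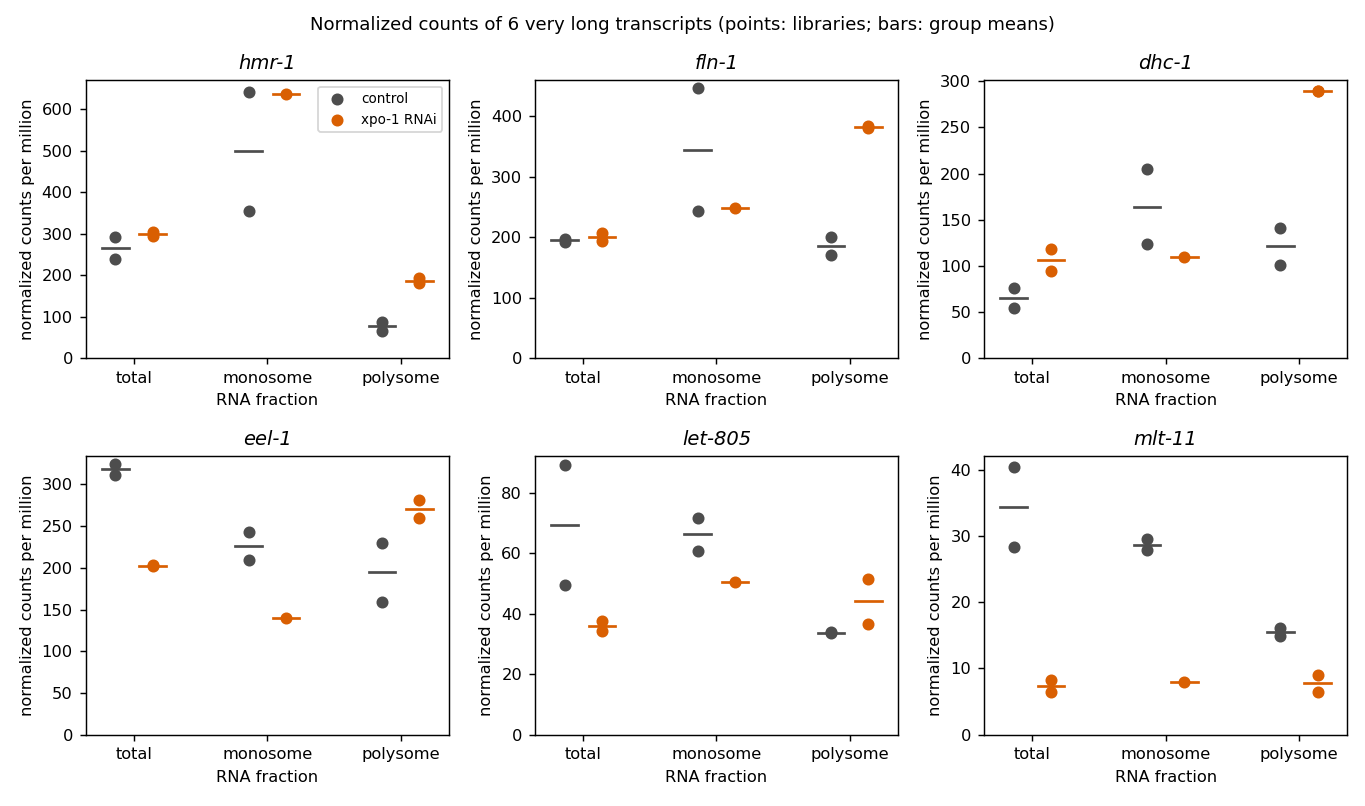
Normalized counts (CPM) of 6 genes in total, monosome and polysome RNA, with each library as a point and group means as bars. For *fln-1* the total RNA groups lay between 192 and 207 CPM while the *xpo-1* RNAi polysome libraries reached 384 and 381 CPM, and for *mlt-11* every *xpo-1* RNAi library lay below every control library of its kind.

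Of the genes of membranes, traffic, channels and scaffolds, 7 of 8 lay above 0 in total RNA and 8 of 8 in polysome RNA. The total RNA calls were 3 higher and 0 lower, and those in polysome RNA 4 higher and 0 lower, with medians of 0.62 and 0.76. The mechanically gated channel *pezo-1* had 26.5 and 22.6 CPM in control total RNA and 39.5 and 54.02 CPM under *xpo-1* RNAi (log2 fold change 0.91, SE 0.21, edgeR adjusted p 0.00839). Its polysome RNA held 27.4 and 20.9 CPM in control and 57.8 and 52.99 CPM under *xpo-1* RNAi (log2 fold change 1.13, SE 0.22, edgeR adjusted p 0.00437). The lipid transport genes *lpd-3* and *vps-13* were also called higher in both, at 0.91 and 0.74 in total and 0.89 and 1.01 in polysome RNA.

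*rbc-1*, a rabconnectin that regulates the vesicle proton pump, was called higher in polysome RNA at 1.16 and reached 0.51 in total RNA without a call. The inositol trisphosphate receptor *itr-1* (0.64 in total and 0.58 in polysome RNA) and the autophagy scaffold *wdfy-3* (0.60 and 0.58) missed the threshold in both. The reticulon *ret-1*, an organizer of the endoplasmic reticulum, was the member of this group below 0 in total RNA (-0.47, not called), with 0.06 in polysome RNA.

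Among the 9 genes of transcription, chromatin and RNA regulation no total RNA change was called, with values from -0.31 to 0.15, and 3 were called higher in polysome RNA. These were the chromatin remodelers *ssl-1* (0.90) and *nurf-1* (0.63) and *let-711* (0.65), the scaffold of the deadenylase complex that shortens poly(A) tails. *let-711* had 189.9 and 181 CPM in control total RNA and 138 and 171 CPM under *xpo-1* RNAi, and 193 and 143 CPM against 295 and 259 CPM in polysome RNA, so that the groups separated in opposite directions. Separation below in total RNA and above in polysome RNA held in 13 of the 70, beside 2.97% of all 13218 genes tested in both. The Mediator kinase module genes *dpy-22* and *let-19* had polysome changes of -0.24 and 0.02.

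Of the 5 genes of translation control, ribosome assembly and growth, none was called in total RNA and 1 in polysome RNA. This was *let-363*, the TOR kinase, which had 42.9 and 32.5 CPM in control polysome RNA and 78.8 and 54.7 CPM under *xpo-1* RNAi (log2 fold change 0.75, edgeR adjusted p 0.0417) and stood at 0.59 in total RNA (edgeR adjusted p 0.051). *gcn-1*, an activator of the kinase that phosphorylates eIF2 alpha, had -0.39 and 0.40. The ribosome assembly genes F55F10.1 and *utp-20* had 0.63 and -0.07 in polysome RNA, and the fatty acid synthase *fasn-1* had 0.37.

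Of the 4 ubiquitin ligases, *hecd-1* and *ubr-4* were called higher in polysome RNA. *hecd-1* had 249 and 169.8 CPM in control polysome RNA and 511 and 456 CPM under *xpo-1* RNAi (log2 fold change 1.14, SE 0.22, edgeR adjusted p 0.00463), and 0.36 in total RNA. *eel-1* (chromosome IV, 3032578 to 3050102) was called lower in total RNA, from 311 and 325 CPM to 202 and 203 CPM (log2 fold change -0.67, SE 0.16, edgeR adjusted p 0.0111). Its polysome levels were 230.2 and 159 CPM in control and 281 and 260.1 CPM under *xpo-1* RNAi, with every treated library above every control library and no call (log2 fold change 0.41, SE 0.22).

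Of the 9 other genes, *srap-1* (chromosome II, 11203221 to 11220642) had the highest polysome change of the 70. Its polysome levels were 8.84 and 8.36 CPM in control and 34.04 and 20.4 CPM under *xpo-1* RNAi (log2 fold change 1.59, SE 0.27, edgeR adjusted p 0.00282), and its total RNA change was 0.17. The C-type lectin *clec-78* fell in total RNA, from 17.2 and 21.6 CPM to 5.203 and 7.46 CPM (log2 fold change -1.63, SE 0.26, edgeR adjusted p 0.00148), with -0.40 in polysome RNA. F54B3.1 was called higher in total RNA at 0.67 and stood at 0.08 in polysome RNA. *clec-78* and *mlt-11* were called in each of the 4 fits that left out a total RNA library, and the other 12 total RNA calls were lost in at least 1.

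Whether the polysome change exceeded the total RNA change was tested directly, as an interaction over the 8 total and polysome libraries. The difference was above 0 in 62 of the 70 genes, beside 51.4% of all 14900 genes tested, and its median was 0.57, beside 0.02. No gene of the 70 and none of all genes tested (0%) was called with edgeR. At an unadjusted p under 0.05, 27 of the 70 were higher and 0 lower, beside 7.79% and 8.36% of all genes. The lowest adjusted p among the 70 was 0.0972, for *fln-1* (difference 1.00, SE 0.22). *hmr-1* had a difference of 1.11 (edgeR adjusted p 0.0986), *eel-1* 1.12 (0.104), *vab-10* 1.39 (0.121) and *let-805* 1.34 (0.138). With DESeq2 10 of the 70 were called higher and 0 lower, beside 297 and 393 of all 14900 genes. The DESeq2 adjusted p was absent for 23 of the 70. With the replicate number of each treatment as a block, 26 of the 70 were called higher and 0 lower (edgeR, median 0.57). This block called 985 higher and 976 lower of all 14900 genes. The study's methods take total RNA and gradient fractions from the same lysates, but do not say that a shared number marks a shared lysate.

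The median difference was above 0 in every role group, from 0.29 in membranes and traffic and in the other genes to 0.91 in the muscle giants, and 0.71 in the cytoskeletal genes. It was lowest for F54B3.1 (-0.54, SE 0.26) and *utp-20* (-0.37), neither of them called.

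The position of these messages in the gradient was read from the control worms alone, in 1 fit of their 6 libraries. Polysome RNA held 1 of the 70 at a higher and 26 at a lower share than monosome RNA, beside 15.1% higher and 21.8% lower of all 14754 genes tested, with a median log2 ratio of -0.80, beside -0.04, and 5 of 70 above 0, beside 48.8%. Against total RNA, polysome RNA held 1 at a higher and 8 at a lower share, beside 2.63% and 10.6% of all genes, with a median of -0.04. Monosome RNA held 13 at a higher and 1 at a lower share than total RNA, beside 3.87% and 4.37%, with a median of 0.79. With the replicate number as a block these counts became 1 and 45 against monosome RNA, beside 4091 and 4534 of all 14754 genes. Against total RNA they became 16 and 18, beside 2399 and 3441. For monosome against total RNA they became 38 and 1, beside 2213 and 2801. Of the monosome calls against total RNA, 0 remained in either direction without control monosome replicate 2 and without either control total library, where no gene of the whole table was called.

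The lowest ratio of polysome to monosome RNA among the 70 was that of *hmr-1*, which had 643 and 356 CPM in control monosome RNA and 88.3 and 66.5 CPM in control polysome RNA (log2 ratio -2.82, SE 0.35, edgeR adjusted p 0.00258). It was followed by *ten-1* (-2.23), *nurf-1* (-2), *ptp-3* (-1.90) and the ligase *ubr-5* (-1.86). *nurf-1* had 626 and 619 CPM in control monosome RNA and 199.7 and 139 CPM in polysome RNA, with close replicates in monosome RNA.

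*ret-1* alone was called higher in polysome than in monosome RNA, with 127 and 171 CPM in control monosome RNA and 428 and 324 CPM in polysome RNA (log2 ratio 1.21, SE 0.26, edgeR adjusted p 0.0104). Its shortest coding transcript was 612 nt beside a longest of 9909 nt. F54B3.1 was called higher in polysome than in total RNA (1.32, edgeR adjusted p 0.0425). Against total RNA the lowest polysome shares were those of *hmr-1* (-1.88), *nurf-1* (-1.60), *clec-78* (-1.47), *cdh-1* (-1.42) and *ptp-3* (-1.35).

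These control counts depended on the libraries. The median polysome to monosome ratio of the 70 was -0.29 without control monosome replicate 2, beside 0.05 over all genes. It was -1.15 without control monosome replicate 1, beside -0.10. It was -0.75 without control polysome replicate 2, beside -0.14, and -0.92 without control polysome replicate 1, beside -0.04. The share of the 70 called lower in polysome than in monosome RNA lay below that of all genes without control monosome replicate 2. This share lay near that of all genes without either control polysome library. *hmr-1*, *ten-1*, *nurf-1*, *ptp-3*, *cdh-1*, *ssl-1* and *tln-1* were called lower in each of the 6 fits that left out a control library. None of the 9 calls against total RNA was made in every such fit. The median polysome to total ratio of the 70 was 0.27 without control total replicate 1, beside 0.13 over all genes. It was 0.09 without control total replicate 2, beside 0.10, and -0.01 without control polysome replicate 2, beside -0.14. Few genes of the whole table were called lower in those fits.

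In the 4 total and polysome libraries of *xpo-1* RNAi worms 37 of the 70 were called higher and 2 lower in polysome than in total RNA, beside 25.2% and 22.6% of all 13344 genes tested, with a median of 0.64. The control worms' median for the same ratio was -0.04. The interaction above is the test of that difference.

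As *xpo-1* RNAi worms gave 1 monosome library, the monosome change was tested only in the fit of all 11 libraries, which assumes that this library varies like the other groups. That fit called 0 of the 70 higher and 1 lower, beside 5.08% and 2.74% of all 15378 genes tested, the one being *mlt-11* (log2 fold change -1.84, SE 0.33, edgeR adjusted p 0.0119). The median log2 fold change of the 70 in that fit was -0.38, beside -0.08 over all genes. The library's log2 ratio to the mean of the control monosome libraries had a median of -0.39 over the 70, beside -0.05 over 13585 genes (on a scale of CPM plus 1). Against control replicate 1 the median was 0.09, and against control replicate 2 it was -0.69, so the sign of a typical change rested on the control library chosen. *mlt-11* was lower against both (-1.70 and -1.77), as were *clec-78* (-0.94 and -0.42) and *eel-1* (-0.60 and -0.81). *frm-1* (0.68 and 0.69), *pezo-1* (1.36 and 0.45) and *hecd-1* (0.91 and 0.40) were higher against both. In 10 of the 70 (14.3%) the treated library lay above both control libraries, beside 38.2% of all genes. In 26 (37.1%) it lay below both, beside 40% of all genes.

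The change of the ratio of polysome to monosome RNA, which the study used as translation efficiency, had a median of 0.72 on the log2 scale, beside 0.02 over 12828 genes. Against control monosome replicate 1 alone the median was 0.35 and against replicate 2 alone 1.07. It was above 0 in 67 of the 70, beside 51.1% of all genes, and over 1 in 22, beside 4.44% of all genes, and under -1 in 0 of the 70, beside 11.3%. In 37 of the 70 it was above 0 for every choice of 1 polysome library of each group and 1 control monosome library. This held in 24.9% of all genes. The highest values were those of *dig-1* (2.13), *srap-1* (1.81), *unc-22* (1.78), *dhc-1* (1.77) and *unc-89* (1.76), and *ret-1* (-0.46), *cdh-12* (-0.35) and *dpy-22* (-0.35) lay below 0. Over the choices of libraries *unc-22* ranged from 0.11 to 3.07, *unc-89* from 0.35 to 2.86, *dig-1* from 0.89 to 3.03, *srap-1* from 0.85 to 2.53 and *dhc-1* from 1.16 to 2.34. Against control replicate 2 alone *dpy-22* was at 0.13. The muscle giants had a group median of 1.21 (0.66 and 1.61 against control replicates 1 and 2), with a monosome median of -0.25 against control replicate 1 and -1.29 against control replicate 2.

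**Figure D4:**
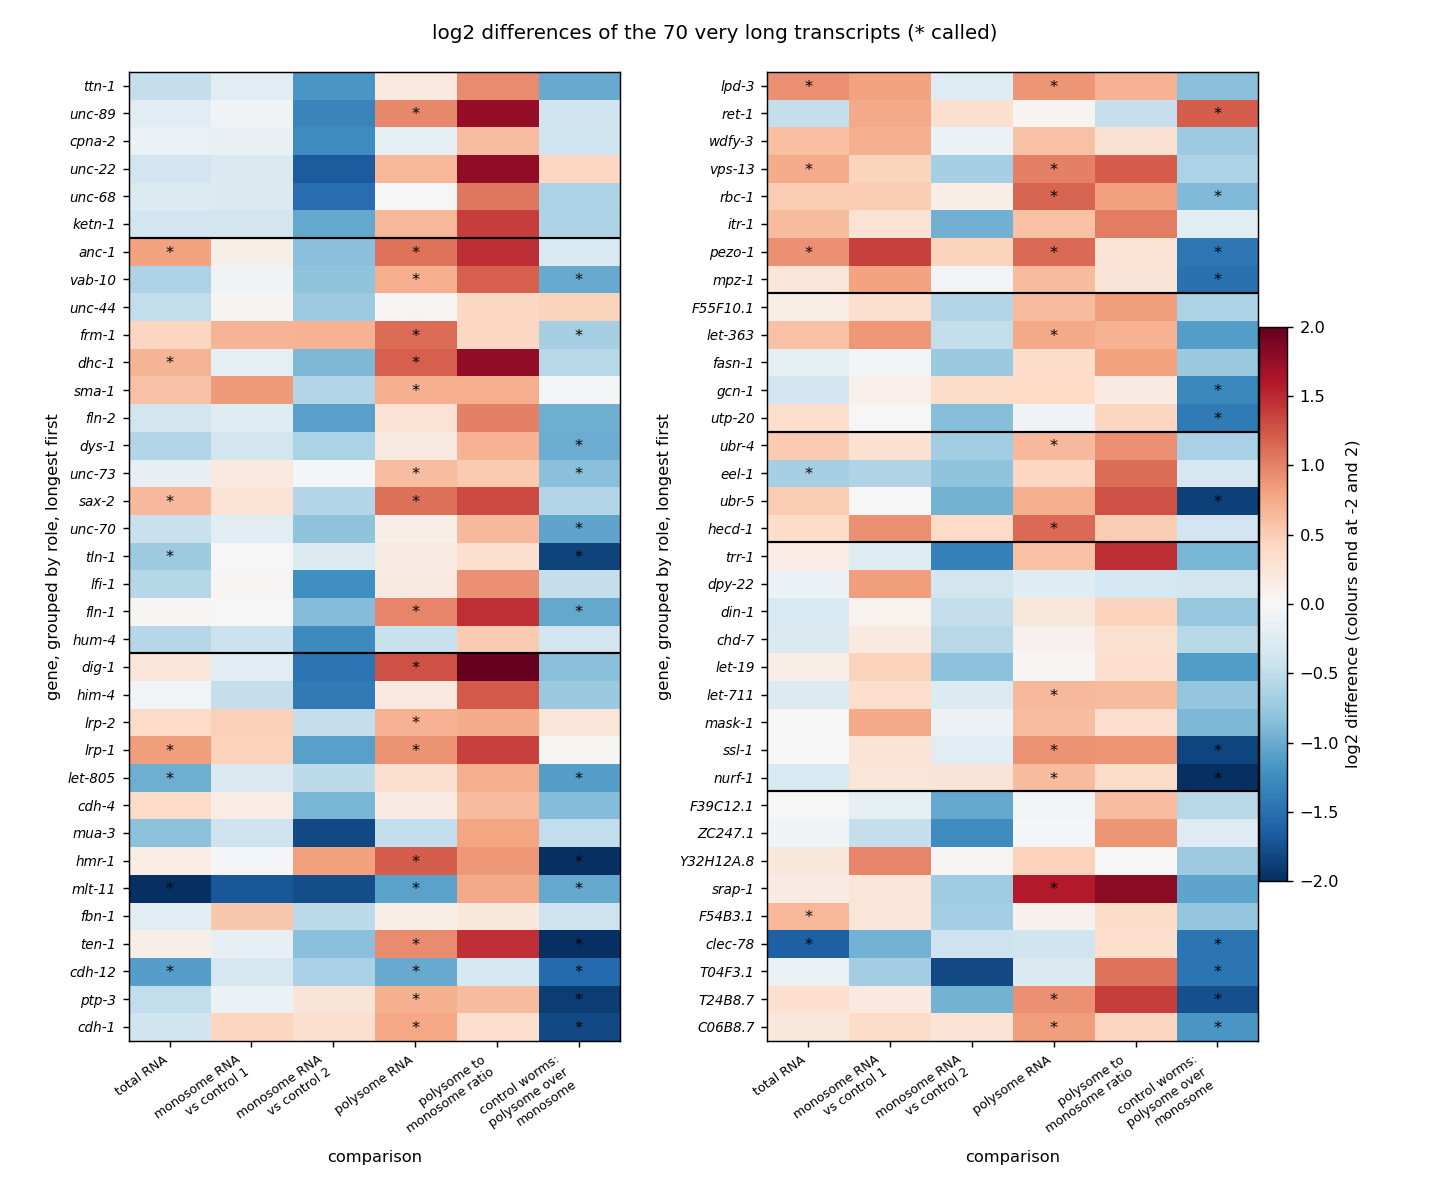
log2 differences of the 70 genes by role (blocks, longest gene first), for *xpo-1* RNAi over control in total, monosome (against each control library) and polysome RNA and in the polysome to monosome ratio, and for polysome over monosome RNA in control worms; stars mark genes called where a test was run. The polysome column holds 29 higher and 2 lower calls, and the monosome columns have medians of 0.09 and -0.69.

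The very long genes were set beside shorter ones to see whether these values followed length. Among genes averaging 100 counts or more, the median polysome change was -0.55 below 1000 nt, -0.01 from 1000 to below 2000 nt, 0.39 from 2000 to below 4000 nt, 0.61 from 4000 to below 8000 nt (459 genes) and 0.58 at 8000 nt and over (72 genes, *unc-52* and *epi-1* included). The 43.1% called higher among genes of 4000 to below 8000 nt and the 40.3% among those of 8000 nt and over lay close together. The difference between polysome and total RNA change also rose from the shorter classes, with medians of -0.34, 0.03, 0.39, 0.56 and 0.57. In total RNA the medians ran from -0.12 to 0.15 and that of the longest class was -0.06. The closeness of the longest classes depended on the classing. Over all genes tested, with no floor of 100 counts, the polysome medians were 0.57 at 4000 to below 8000 nt and 0.41 above. Those of the difference were 0.52 and 0.44. By coding length, over all genes tested, the polysome medians were 0.57 and 0.41 and those of the difference 0.56 and 0.35.

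The other quantities were read in the classes of exonic length among genes averaging 100 counts or more. In control worms the polysome to monosome ratio went the opposite way over the classes, with medians of 0.55, -0.18, -0.66, -1.10 and -0.80, and was lowest at 4000 to below 8000 nt. The monosome change of the longest class (-0.42) lay below that of the other classes (0.03 to 0.09). It was -0.71 against control replicate 2 and 0.06 against control replicate 1, beside -0.05 and 0.20 in the class of 4000 to below 8000 nt. The median change of the polysome to monosome ratio rose over all 5 classes, from -0.58 to 0.74. Against control replicate 1 alone the last 2 classes had 0.39 and 0.38, and against replicate 2 alone 0.62 and 1.09. The differences between classes were described and not tested.

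**Figure D5:**
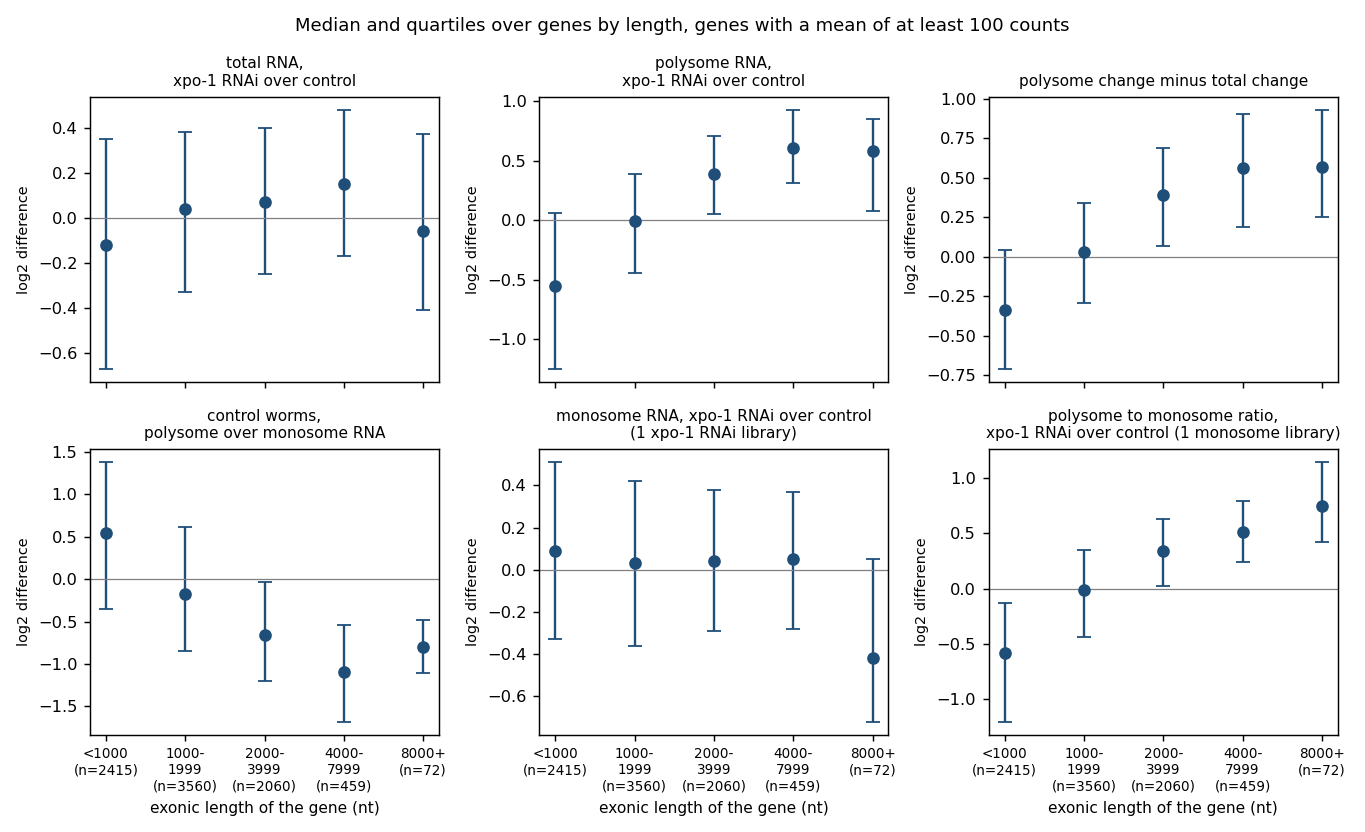
Median log2 difference, with quartiles as bars, for genes averaging 100 counts or more in 5 classes of exonic length, for 6 quantities. In polysome RNA the median rose from -0.55 in the shortest class to 0.61 at 4000 to below 8000 nt and was 0.58 at 8000 nt and over.

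Among the 70 themselves, polysome change did not order by length, with a Spearman coefficient of 0.02 over genes that share all libraries. With the mean count its coefficient was 0.39, and that of the difference between polysome and total RNA change 0.35. The 32 genes of 8000 to below 10000 nt had a median polysome change of 0.63, the 28 genes of 10000 to below 16000 nt 0.36 and the 10 genes of 16000 nt and over 0.67. The control polysome to monosome ratio was less negative in longer members, with medians of -1.08, -0.73 and -0.50 in these classes and a coefficient of 0.49. The monosome change had medians of -0.18, -0.36 and -0.79 and the change of the polysome to monosome ratio 0.58, 0.74 and 1.29. Against control replicate 1 alone the monosome medians were 0.22, 0.11 and -0.18 and the ratio medians 0.29, 0.36 and 0.85, and against replicate 2 alone these were -0.54, -0.66 and -1.21 and 0.82, 1.13 and 1.61.

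Transcript structure was then set beside the place of the members in the control gradient. The 26 genes called lower in polysome than in monosome RNA had a median shortest coding transcript of 3448.5 nt, beside 9552 nt in the other 44. Their median exonic length was 9288.5 nt, beside 12153 nt, and their median control total level per kilobase was 3.48 CPM, beside 1.29 CPM. Of the 12 genes with a coding transcript under 2000 nt, 7 were among these 26, and of the 33 genes whose coding transcripts all reached 8000 nt, 6 were. These are descriptions of the called and uncalled sets, which also differ in abundance. The log2 ratios themselves were close, with a median of -0.80 in the 12 genes with a coding transcript under 2000 nt. It was -0.73 in the 33, -0.83 in the 15 with a single coding transcript and -0.80 in all 70. Among the marker lists the median of this ratio ran from -1.65 in the germline (7 of 8 called lower, 0 higher) to 2.54 in sperm (0 of 8 called). The germline markers had a median length of 2402.5 nt. The part of cell type in the ratios of the 70 was not tested.

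The 29 genes called higher in polysome RNA had a median shortest coding transcript of 7821 nt and the other 41 of 7902 nt, and their median control total levels per kilobase were 2.96 and 1.56 CPM. In the 33 genes whose coding transcripts all reached 8000 nt the median polysome change was 0.65 and the median total RNA change 0.22. In the 12 with a coding transcript under 2000 nt these were 0.28 and -0.31. The median difference between polysome and total RNA change went the other way, at 0.32 in the 33 and 0.77 in the 12. Per kilobase the most abundant members in control total RNA were *nurf-1* (60 CPM), *ret-1* (40.1), *hmr-1* (26.3), *fln-1* (24.1), *eel-1* (24.1) and *let-711* (21.4), and the least abundant were *dig-1* (0.153) and *ttn-1* (0.159).

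Genes that work with these members were read from 3 lists of any length. Of 26 spectrin and dynein partners and other cytoskeletal genes, with a median length of 1542 nt, 4 were called higher and 7 lower in total RNA, with a median of -0.21, and 3 higher and 8 lower in polysome RNA, with a median of -0.32. Of the molting and apical matrix genes, 18 of 25 tested were called lower and 1 higher in total RNA, and 16 of 26 were called lower and 1 higher in polysome RNA, with medians of -1.95 and -1.56. The muscle and attachment list described above had a median length of 2297 nt and polysome and total medians of -0.32 and -0.67.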

How the data were processed

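The authors lysed worms with cycloheximide, prepared polyadenylated RNA from total, monosome and polysome material and sequenced it. Per the labels, their processing named Trimmomatic, STAR, featureCounts of Subread and the build WBcel235. The strand setting is not given in the sources used here, so reads of overlapping genes cannot be separated. The authors deposited raw counts per gene for 11 libraries, which were used here, and 3 tables of normalized values, which were not (value columns left without a sample: 0).

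Differences were tested with edgeR 4.0.16 (quasi-likelihood, TMM, R 4.3.3). A gene entered a fit where 2 or more of its libraries held 10 counts or more, p-values were adjusted over all such genes by Benjamini-Hochberg, and a call needed an adjusted p below 0.05 together with a change of more than 1.5-fold. Standard errors are the log2 fold change over the square root of F. DESeq2 1.42.0 was an alternative. All 70 members passed the filter in every fit. Total and polysome RNA were fitted on their own 4 libraries, the interaction on 8, the control fractions on 6. Monosome ratios used TMM within the fraction and a pseudocount of 1 CPM. Displayed CPM share 1 TMM scaling over all 11 libraries. Libraries of a group were separate biological samples per the study's methods. Their counts differed by more than sampling noise (chi-square per degree of freedom, 14.1 to 62.4).

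On simulated counts with 100 genes changed 2-fold and 100 changed 4-fold, the test recovered 60% and 98% in total RNA. It recovered 49% and 97% in polysome RNA and 29% and 83% in the interaction. The simulated libraries were drawn independently at the fitted trend of the dispersion, with no further spread of single genes and no shared lysates. These rates hold for counts of that kind and can differ in the real libraries.

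Genes described in full were the 10 longest, the 8 highest and 8 lowest called in total and in polysome RNA, the 5 highest and lowest called in each control comparison, and the 5 with most counts per kilobase. Other members are named for completeness. The members and lists were chosen with earlier results of these data known. Symbols came from a table that matched 43798 of 46756 identifiers, and transcript lengths from the Ensembl annotation. No sequence is shown. Alternatives were RLE and total-count scaling, other count filters, DESeq2, 1 fit of all libraries, a replicate block, narrower member sets and leaving out each library.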

Additional observations from a re-analysis of the deposited data

Results flagged for a closer look

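In 13 of the 70 genes every *xpo-1* RNAi library lay below every control library in total RNA and above every control library in polysome RNA. This held in 2.97% of the 13218 genes tested in both. The 13 were looked at again because the same contrast separated the groups in opposite directions. The log2 difference of the polysome and total RNA changes was 1.39 for *vab-10*, 1.34 for *let-805*, 1.24 for *ptp-3*, 1.23 for *cdh-1*, 1.12 for *eel-1*, 0.99 for *nurf-1*, 0.97 for *let-711*, 0.93 for *tln-1*, 0.83 for *gcn-1*, 0.81 for *dys-1*, 0.79 for *lfi-1*, 0.60 for *unc-70* and 0.42 for *fbn-1*. The difference itself was tested with edgeR as the interaction, in which none of the 13 was called. Among them *let-805*, *tln-1* and *eel-1* were called lower in total RNA, and *vab-10*, *ptp-3*, *cdh-1*, *nurf-1* and *let-711* higher in polysome RNA.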

How the results depend on the processing

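Every call in total RNA, in polysome RNA and between the control fractions kept its direction under each alternative run for it. So did every call between polysome and total RNA of *xpo-1* RNAi worms, but the counts of calls changed. Counts over all genes changed too, also with 1 library left out. Total-count scaling called 3305 higher and 1647 lower of 13795 genes in total RNA, and 4503 and 2209 of 13940 in polysome RNA. The interaction called 297 of 14900 genes higher with DESeq2. It called 275 of 22741 with no filter and 303 of 11215 with 10 counts in every library. In total RNA (8 higher, 6 lower) total-count scaling gave 19 and 3, 1 fit of all 11 libraries gave 1 higher, the 38 members of at least 10000 nt gave 5 and 3, the 44 without exon overlap gave 4 higher, and leaving out 1 library gave 0 to 14 higher and 2 to 18 lower. In polysome RNA (29 and 2) total-count scaling gave 46 and 0 and members of at least 10000 nt gave 13 and 0. A mean of at least 200 counts or no exon overlap gave 1 lower each. With 1 library left out the median of the 70 ran from 0.42 to 0.76, beside -0.03 to 0.03 over all genes. In the interaction (0 and 0) the higher calls were 10 with DESeq2, 15 with no filter on low counts and 9 with 10 counts in every library. With 1 library left out the median difference ran from 0.50 to 0.80, beside -0.05 to 0.29 over all genes. Without both control replicate 2 libraries it was 0.43, beside -0.01 over all genes. Without both control replicate 1 libraries it was 0.66, beside 0.04. These fits keep 1 control library of each kind of RNA, so their counts of calls cannot be weighed. Leaving out both control replicate 2 libraries gave 1 higher and both replicate 1 libraries 27, alternatives chosen after seeing the data. In control polysome against total RNA (1 and 8) RLE scaling gave 2 and 5, beside 293 and 758 of 14754 genes. The higher calls were 6 with DESeq2, beside 807, and 10 with no filter, beside 1077 of 22727. With 10 counts in every library they were 3, beside 637 of 11877. In 1 fit of all libraries the calls were 7 and 13, beside 1549 and 2447 of 15378. No exon overlap gave 0 higher and members of at least 10000 nt 3 lower. With 1 library left out the median of the 70 ran from -0.05 to 0.27, beside -0.14 to 0.13 over all genes. In control polysome against monosome RNA (1 and 26) no exon overlap gave 0 higher, members of at least 10000 nt 7 lower, and leaving out 1 library 0 to 1 higher and 8 to 33 lower. The alternatives for the next comparisons were chosen after seeing the data. In control monosome against total RNA (13 and 1) the higher calls were 20 with total-count scaling, beside 1234 of 14754 genes. DESeq2 gave 25 higher, beside 892. They were 23 with no filter, beside 826 of 22727, and 29 in 1 fit of all libraries, beside 1265 of 15378. A replicate block gave 38 higher, beside 2213 of 14754. Members of at least 10000 nt gave 6 higher and those without exon overlap 7 (0 lower). With 1 library left out the median of the 70 ran from 0.40 to 1.08, beside -0.08 to 0.05 over all genes. In *xpo-1* RNAi polysome against total RNA (37 and 2) total-count scaling gave 1 lower, beside 2181 of 13344 genes. In 1 fit of all libraries 23 and 0 were called, beside 1779 and 2394 of 15378. Members of at least 10000 nt gave 24 and 1, a mean of at least 200 counts 1 lower and no exon overlap 21 higher. With 1 library left out the median of the 70 ran from 0.47 to 0.84, beside 0.04 to 0.08 over all genes.

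Groups shared replicate numbers. Total RNA and fractions came from the same lysates, but no source ties a number to a lysate, so the block was kept as an alternative. Deviations of same-numbered libraries correlated at 0.727 for control total with polysome RNA, at 0.432 for control total with monosome RNA, at 0.372 for control monosome with polysome RNA, at -0.403 for total with polysome RNA under *xpo-1* RNAi and at 0.0873 and 0.0416 between treatments. With a replicate block the interaction called 26 of the 70 higher, beside 985 of all 14900 genes. With the *xpo-1* RNAi polysome numbers crossed it called 35 higher, beside 1547. Control polysome against total RNA gave 16 higher and 18 lower, beside 2399 and 3441 of all 14754 genes. Control polysome against monosome RNA gave 45 lower, beside 4534. Duplicates limit all tests: 29% of simulated 2-fold changes were recovered in the interaction, where simulated libraries were drawn independently.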
